A study of Mus musculus with 20 samples.

Results

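Solute carriers are the membrane proteins that move sugars, amino acids, ions, nucleotides and metabolites across the plasma membrane and the membranes of organelles, and in the mouse their gene symbols begin with Slc and a family number. They were examined in muscle of a transgenic model of motor neuron disease and in muscle after injury of its nerve. The set holds every probe set whose only platform gene symbol begins with Slc and a digit: 141 of the 10748 probe sets on the array, for 103 genes. The 2 probe sets of Slc25a20 were left out when the set was defined. Symbols were the only criterion, so the set includes Slc9a3r2 and Slc4a1ap, whose products are not themselves transporters. The genes were grouped by family number into 8 classes: glucose and sugar carriers, monocarboxylate carriers, amino acid and peptide carriers, ion carriers, metal carriers, mitochondrial carriers of the Slc25 family, nucleoside and nucleotide sugar carriers, and carriers of organic solutes, lipids and vitamins.

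All mice were female C57BL/6, and all muscles were taken at 14 weeks of age. The 20 arrays form 5 groups of 4. Gastrocnemius, a calf muscle of the hind limb, and triceps, a muscle of the fore limb, came from symptomatic mice with a human SOD1 transgene carrying the G93A substitution (SOD1 mice) and from non-transgenic mice (NTg mice). The fifth group was gastrocnemius 2 weeks after the sciatic nerve had been compressed with forceps for 30 s at 12 weeks of age, which served as a denervation control. The labels name neither the genotype of the crushed mice nor the promoter of the transgene, nor any sham operation. The titles call the replicates biological, and 4 arrays a group limit the precision of every value. Whole muscle was hybridised, so fewer cells of a type and less RNA per cell cannot be told apart.

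In muscle, glucose enters fibres through the insulin-responsive transporter GLUT4 (Slc2a4), and lactate leaves and enters through the monocarboxylate transporters MCT4 (Slc16a3) and MCT1 (Slc16a1). Sodium-coupled carriers concentrate amino acids, taurine and creatine inside the fibre. The Slc25 carriers cross the inner mitochondrial membrane, and its adenine nucleotide translocases exchange ATP made in the matrix for cytosolic ADP.

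Signals are on a log2 scale, and changes are differences of group means on that scale. A probe set was tested if its mean over all arrays exceeded 5.88, which kept 7523 probe sets, among them 86 solute carrier probe sets for 61 genes. A change was called where the adjusted p of the limma fit was under 0.05. Array medians ran from 6.61 to 6.76. Skeletal muscle markers such as Ckm, Acta1 and Tnnt3 were all measured (8 of 8), their summed log2 level per array ran from 14.1 to 15.9, and 0 were called by limma, and 0 had an unadjusted p under 0.05, in SOD1 or crushed gastrocnemius against NTg. Crush replicate 4 stood apart: its correlation with the other crush arrays averaged 0.905 and with the SOD1 gastrocnemius arrays 0.944. Chrna1, a denervation-responsive acetylcholine receptor subunit, read 6.97, 7.28 and 7.40 on crush replicates 1 to 3 and 11.3 on replicate 4. Among the 86 tested solute carrier probe sets, replicate 4 lay outside the range of replicates 1 to 3 in 67 (17 above, 50 below). Counted the same way, replicates 1, 2 and 3 lay outside the range of the other crush arrays in 21, 40 and 44. NTg triceps replicate 4 is described in 1 label as gastrocnemius, against its title, source and tissue labels; its mean correlation was 0.945 with the other NTg triceps arrays and 0.909 with NTg gastrocnemius. Where a named value changed its call, or moved by over 1.5 times, without either array, both values are given. Leaving out crush replicate 4 does not change the means of comparisons without crush, but it changes their error, which all 20 arrays share.

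In SOD1 gastrocnemius 10 of the 61 tested solute carrier genes changed against NTg. Of these, 4 rose: Slc6a6, Slc25a5, Slc66a2 and Slc29a1. The other 6 fell: Slc38a4, Slc41a3, Slc37a4, Slc40a1, Slc2a4 and Slc25a51. By probe set, 14 of 86 were called (16.3%; 8 higher and 6 lower), where 12% of all tested probe sets were called (5.97% higher and 6.02% lower), and 5 of the 8 that rose belong to Slc25a5 alone. By gene the share was 16.4% of solute carriers. It was 14.2% of all tested symbol entries, which also include entries of several symbols and the empty entry. The arrays of both groups did not overlap for 22 of the 86 probe sets (25.6%), against 26% of all tested. The median change of the 86 was -0.06, against 0.00 over all probe sets. The share of solute carriers called was thus near that of the array.

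Single arrays moved these counts. The share over all tested probe sets is given only for the fit without crush replicate 4. The other counts are therefore not set against the array. The 14 calls became 2 without SOD1 gastrocnemius replicate 4, 5 without either SOD1 replicate 2 or NTg replicate 4, and 7, 9 and 8 when NTg replicate 2, NTg replicate 1 or SOD1 replicate 3 was left out, and 23 without crush replicate 4, where 17.8% of all tested probe sets were called, 9 of the 23 not being called with all arrays. Slc38a4 and Slc6a6 were the 2 called without SOD1 replicate 4. Slc38a4 kept its call in all 26 alternatives, and Slc6a6 in the 25 that tested its probe set. The other 12 kept their direction without SOD1 replicate 4, with adjusted p between 0.0516 and 0.175. Macrophage markers were also higher in this comparison: 7 of the 9 tested rose, among them Lgals3 and C1qb, where 5.97% of all tested probe sets rose. The summed log2 level of these markers ran from 9.62 to 9.99 in NTg and from 10.5 to 11.1 in SOD1 gastrocnemius. limma called 0 of 8 endothelial, 0 of 7 fibroblast, 0 of 4 adipocyte and 0 of 3 Schwann cell markers, of which 1, 1, 0 and 0 had an unadjusted p under 0.05. The summed log2 level of the endothelial markers ran from 9.49 to 9.55 in NTg and from 9.23 to 9.47 in SOD1 gastrocnemius. None of the 6 erythroid markers listed was found by symbol. The part of these markers in the changes of the solute carriers was not tested.

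**Figure D1:**
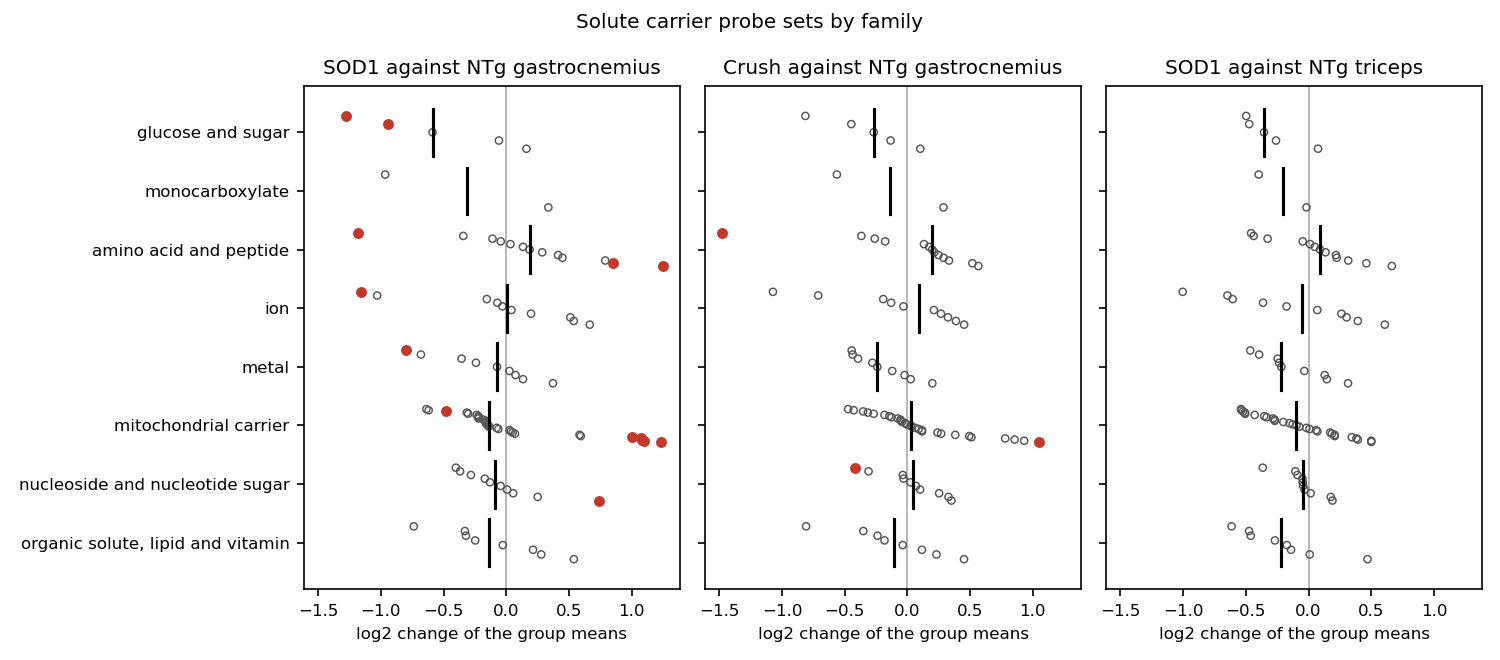
Log2 change of each tested solute carrier probe set by family in 3 comparisons; filled red points were called (adjusted p under 0.05, limma), open points were not, and the black bar is the family median. Called points lie on both sides of 0 in SOD1 gastrocnemius (14), are 3 in crushed gastrocnemius and are absent in triceps.

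Among the sugar carriers, 2 of 5 tested probe sets fell in SOD1 gastrocnemius (40%, against 6.02% of all tested) and none rose. These 5 read only 4 genes, 2 of them reading Slc2a4, and the median was -0.59 by probe set and -0.32 over the brightest probe set of each gene. Slc37a4, which carries glucose 6-phosphate into the endoplasmic reticulum, read 9.21, 9.60, 8.81 and 9.23 on the NTg arrays and 8.50, 7.83, 7.93 and 7.47 on the SOD1 arrays. Every SOD1 array was below every NTg array, and the level was 2.43-fold lower (log2 change -1.28, SE 0.34, adjusted p = 0.0216). Slc2a4 was read by 2 probe sets. On 1415959_at the NTg arrays held 9.54, 9.62, 9.72 and 9.63 and the SOD1 arrays 9.39, 8.74, 8.67 and 7.93, again with no overlap. That is a fall of 1.92-fold (log2 change -0.94, SE 0.29, adjusted p = 0.0427). The call was lost after quantile normalization, without any 1 of the NTg gastrocnemius arrays and without SOD1 replicate 2, 3 or 4. It was also lost without NTg triceps replicate 2, an array of neither group (adjusted p = 0.0514). The brighter Slc2a4 probe set, 1415958_at, had a change of -0.59 (SE 0.28, adjusted p = 0.17), and here SOD1 replicate 1 (10.3) lay inside the NTg range of 10.1 to 10.5. It was called at the same size without crush replicate 4 (SE 0.20, adjusted p = 0.0495). Slc2a1, the basal glucose transporter GLUT1, differed by 0.16 (adjusted p = 0.595), and Slc50a1 by -0.06.

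Neither monocarboxylate carrier was called with all arrays. Slc16a3 read 9.46, 9.39, 9.08 and 9.49 in NTg and 9.27, 8.45, 8.86 and 6.98 in SOD1 gastrocnemius, a difference of -0.97 with an SE of 0.50 (adjusted p = 0.207). SOD1 replicate 1 overlapped the NTg arrays, and replicate 4 was more than 1 unit below the other SOD1 arrays. Slc16a3 was called at the same size without crush replicate 4 (SE 0.31, adjusted p = 0.0391). Slc16a1 had all SOD1 arrays (8.01 to 8.13) above all NTg arrays (7.56 to 7.97), but the difference of 0.33 was not called (adjusted p = 0.187).

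Both changes of this comparison that were kept under all alternatives that tested them were of amino acid carriers. Of 13 tested probe sets for 10 genes, 2 rose and 1 fell (23.1% called, against 12% of all tested), and the median was 0.19. Slc6a6, the sodium-coupled taurine transporter, read 6.15, 5.88, 6.56 and 6.87 on the NTg arrays and 7.83, 7.84, 7.10 and 7.69 on the SOD1 arrays. All 4 SOD1 arrays were above all 4 NTg arrays, and the rise was 2.37-fold (log2 change 1.25, SE 0.25, adjusted p = 0.00667). Slc66a2, placed here by its family number, read 6.76, 6.59, 6.82 and 6.70 in NTg and 6.92, 7.71, 7.54 and 8.11 in SOD1 gastrocnemius (log2 change 0.85, SE 0.21, adjusted p = 0.0167), with SOD1 replicate 1 just above the NTg arrays.

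Slc38a4 encodes SNAT4, a sodium-coupled carrier of neutral amino acids. On probe set 1428111_at the signals were 7.60, 7.75, 7.57 and 7.31 in NTg and 6.51, 6.24, 6.73 and 6.00 in SOD1 gastrocnemius. The groups were well separated, and the fall was 2.27-fold (log2 change -1.18, SE 0.23, adjusted p = 0.00585). The second and brighter probe set of the gene, 1448889_at, overlapped between the groups and gave -0.34 (SE 0.21, adjusted p = 0.29). The fall of Slc38a4 therefore rests on 1 of its 2 probe sets.

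Other amino acid carriers named for muscle were read without a call. SNAT2 (Slc38a2) differed by 0.79 (SE 0.32, adjusted p = 0.108), with all SOD1 arrays (8.60 to 9.55) above all NTg arrays (8.12 to 8.42), and was called without crush replicate 4 (adjusted p = 0.00412), as was Slc38a10 (0.45, adjusted p = 0.0497). The glutamine carrier Slc1a5 differed by 0.29, the heavy chain Slc3a2 that brings light-chain carriers to the surface by -0.04, and the creatine transporter Slc6a8 by 0.03. On 1448596_at Slc6a8 differed by -0.11, also without a call.

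**Figure D2:**
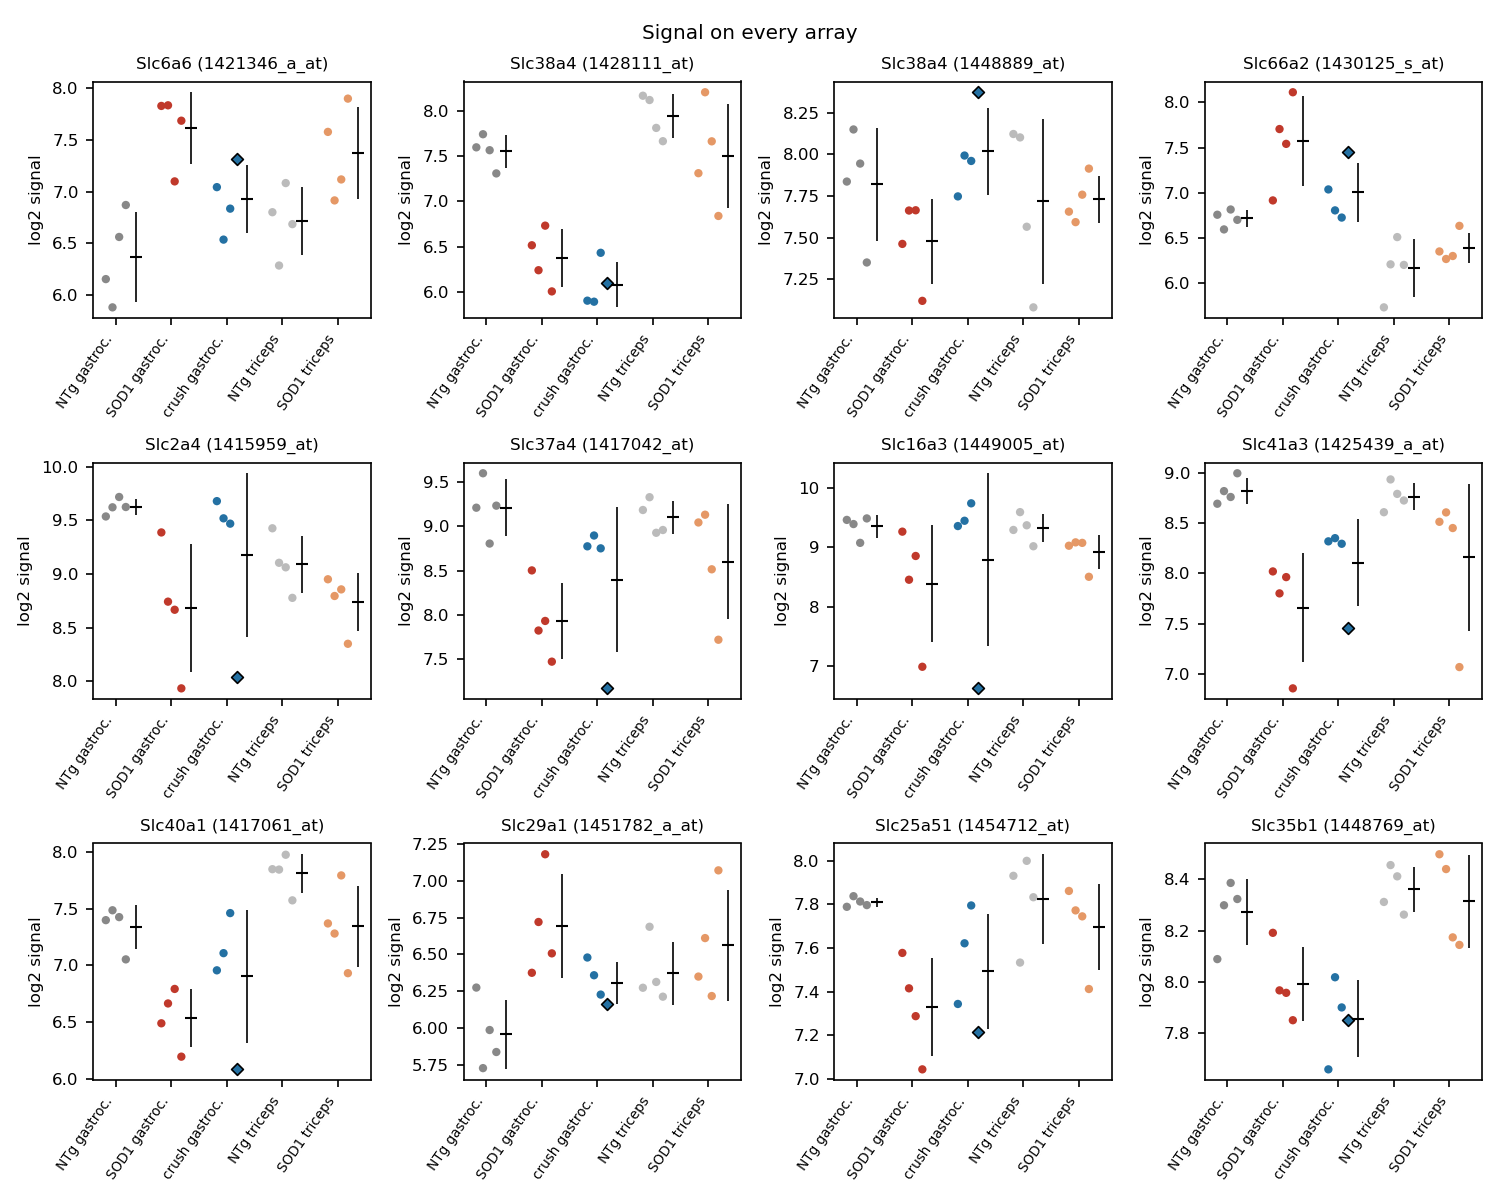
Log2 signal on each array for 12 solute carrier probe sets, by group, with the mean and SD of the 4 arrays as a bar beside the points; the diamond is crush replicate 4. SOD1 gastrocnemius is separated from NTg gastrocnemius for Slc6a6, Slc37a4, Slc41a3 and the first Slc38a4 panel (1428111_at), but not for the second (1448889_at) or for Slc16a3, and the diamond is the lowest crush array for Slc2a4, Slc37a4, Slc16a3, Slc41a3 and Slc40a1.

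Ion and metal carriers each had 1 call in SOD1 gastrocnemius, both falls, among 10 and 9 tested probe sets. These were 10% and 11.1%, where 6.02% of all tested fell. Slc41a3, a member of the magnesium transporter family Slc41, read 8.69, 8.82, 8.76 and 9.0 in NTg and 8.02, 7.80, 7.96 and 6.86 in SOD1 on 1425439_a_at. The fall was 2.23-fold (log2 change -1.16, SE 0.29, adjusted p = 0.0177), with no overlap and with SOD1 replicate 4 lowest. Its other tested probe set, 1451707_s_at, was also lower on every SOD1 array, at -1.03, but missed the threshold (SE 0.38, adjusted p = 0.0785); without crush replicate 4 it was called at the same size (SE 0.25, adjusted p = 0.0097). Slc40a1, ferroportin, the exporter of iron from cells, read 7.40, 7.48, 7.42 and 7.05 in NTg and 6.49, 6.67, 6.79 and 6.20 in SOD1 gastrocnemius. Again no arrays overlapped, and the fall was 1.74-fold (log2 change -0.80, SE 0.23, adjusted p = 0.0289). Its second probe set gave -0.68 (adjusted p = 0.0952). Among the rest, the phosphate carriers Slc20a1 (0.67, adjusted p = 0.0721) and Slc20a2 (0.54) and the mitochondrial sodium-calcium exchanger Slc8b1 (0.51) were higher without a call, the chloride cotransporter Slc12a2 differed by 0.20 and the zinc importer Slc39a1 by 0.02. On 1448780_at Slc12a2 differed by -0.07. Slc20a1 (adjusted p = 0.0233) and Slc8b1 (adjusted p = 0.0473) were called without crush replicate 4.

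The mitochondrial carriers are the largest class, with 29 tested probe sets for 16 genes. Of these probe sets 5 rose and 1 fell (20.7% called, against 12% of all tested). All 5 that rose read Slc25a5, the adenine nucleotide translocase ANT2, which has 7 tested probe sets. Its brightest, 1436874_x_at, held 7.60, 7.92, 8.03 and 7.70 on the NTg arrays and 8.69, 8.80, 8.93 and 9.16 on the SOD1 arrays. The groups did not overlap, and the rise was 2.12-fold (log2 change 1.08, SE 0.27, adjusted p = 0.017). The other 4 called probe sets gave between 1.0 and 1.23, with adjusted p between 0.0145 and 0.04, and the 2 not called gave 0.59 and 0.58. All 7 were higher in SOD1, and in 6 the groups did not overlap. Among the 5 called names, 4 end in _x_at, which on these arrays marks probe sets with probes that may also read related transcripts, so these probe sets are not independent readings.

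Slc25a4, the translocase ANT1 that predominates in striated muscle, was not called. Its 3 tested probe sets gave -0.16, -0.16 and -0.62 (adjusted p = 0.641, 0.665 and 0.0965), with signals of 12.0 to 12.8 in SOD1 and 12.5 to 12.7 in NTg gastrocnemius on the brightest, 1424562_a_at. Slc25a51, the carrier of NAD+ into mitochondria, read 7.79, 7.84, 7.81 and 7.80 in NTg and 7.58, 7.41, 7.29 and 7.04 in SOD1 gastrocnemius on 1454712_at. The NTg arrays were tightly grouped and every SOD1 array was lower, a fall of 1.39-fold (log2 change -0.48, SE 0.15, adjusted p = 0.0384). Its brighter probe set gave -0.32 without a call (adjusted p = 0.108). The phosphate carrier Slc25a3 (-0.14) and the oxoglutarate carrier Slc25a11 (-0.30) were not called. The median of the 29 probe sets was -0.14, and 18 of them were lower in SOD1.

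**Figure D3:**
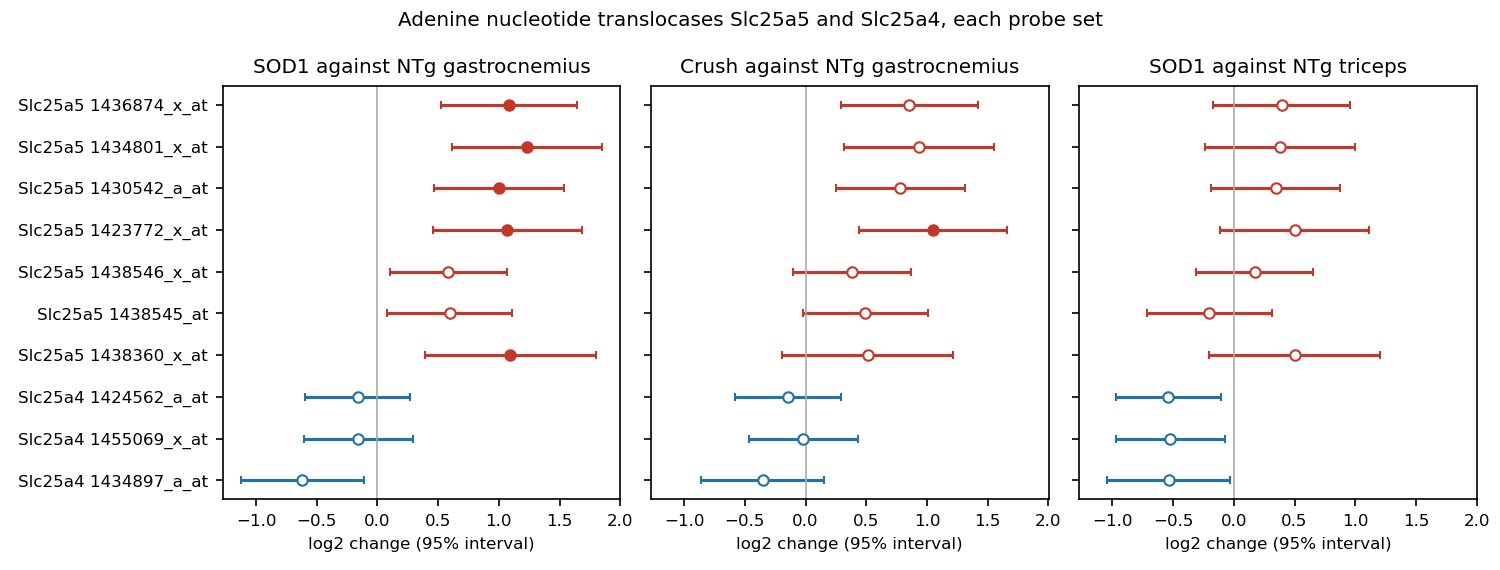
Log2 change with its 95% interval for the 7 tested probe sets of Slc25a5 (red) and the 3 of Slc25a4 (blue) in 3 comparisons; filled points were called. In SOD1 gastrocnemius every Slc25a5 interval lies above 0 and 5 are called, while no Slc25a4 probe set is called in any panel.

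Among the called genes, Slc41a3 and Slc25a5 are those with a single start listed in the RefSeq promoter table (GRCm38.p6), and the 250 bases before that start are shown because these genes moved in opposite directions in the same muscle. The Slc41a3 window is chr6:90618996-90619245 on the plus strand, inside the annotated gene (90604730 to 90646412). The Slc25a5 window is chrX:36795347-36795596 on the plus strand, directly before the annotated gene (36795597 to 36798808). Capitals mark CAGCTG, the E-box form that myogenic factors prefer, and GGGCGG, the GC box, on either strand.
Slc41a3: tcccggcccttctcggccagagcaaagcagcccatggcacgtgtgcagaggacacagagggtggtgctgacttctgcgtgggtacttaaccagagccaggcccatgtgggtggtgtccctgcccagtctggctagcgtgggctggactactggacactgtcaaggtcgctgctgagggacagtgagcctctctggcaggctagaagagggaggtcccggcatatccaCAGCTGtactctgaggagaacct
Slc25a5: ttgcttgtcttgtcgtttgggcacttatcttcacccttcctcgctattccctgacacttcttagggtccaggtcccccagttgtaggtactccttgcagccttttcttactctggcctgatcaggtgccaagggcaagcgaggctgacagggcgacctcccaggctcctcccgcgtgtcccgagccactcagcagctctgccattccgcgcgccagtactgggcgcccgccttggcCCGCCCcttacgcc
The Slc41a3 window held 1 CAGCTG and no GC box, and the Slc25a5 window 1 GC box and no CAGCTG. Both strands were searched in 32841 listed windows of this length, of which 13% held CAGCTG and 32.75% GGGCGG. The wider E-box CANNTG, of which CAGCTG is 1 form, occurred 3 times in Slc41a3, 2 times in Slc25a5 and at least once in 66.2% of windows. Neither window held CCAAT (33.9% of windows), TATAAA (12.4%), TGATGNAAT (0.816%) or the binding motif of MEF2 factors (3.2%). These are matches of letters and not measured binding sites.

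Among nucleoside and nucleotide sugar carriers, 1 of 10 tested probe sets rose in SOD1 gastrocnemius (10%, against 5.97% of all tested) and none fell. This was Slc29a1, the equilibrative nucleoside transporter ENT1 that carries adenosine, at 6.27, 5.73, 5.99 and 5.84 in NTg and 6.38, 6.72, 7.18 and 6.51 in SOD1. The lowest SOD1 array was just above the highest NTg array, and the rise was 1.67-fold (log2 change 0.74, SE 0.20, adjusted p = 0.0219). None of the 8 tested probe sets for organic solutes, lipids and vitamins was called by limma at the adjusted threshold, and 2 had an unadjusted p under 0.05, where 29.5% of all tested probe sets did. The choline carrier Slc44a1 came nearest, at 0.54 (adjusted p = 0.0549), and the largest difference was -0.74 for Slc44a2 on 1428065_at (SE 0.29, adjusted p = 0.0951), with overlapping arrays. Without crush replicate 4 both were called, with adjusted p of 0.0456 and 0.0359. The carnitine carrier Slc22a5 differed by 0.21 and the fatty acid carrier Slc27a1 by -0.33.

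Genes that work with these carriers were read beside them, from lists chosen with earlier results of these data known. In SOD1 gastrocnemius 5.97% of all tested probe sets rose and 6.02% fell. Insulin-stimulated glucose uptake had 15 of 22 genes tested and 1 call, Irs1, the substrate of the insulin receptor kinase, which fell (log2 change -0.81, SE 0.23, adjusted p = 0.0296); the list median was 0.02. Of 8 tested chaperones and sodium pump genes, 1 rose and 3 fell. Basigin (Bsg), the chaperone of MCT1 and MCT4, fell (-0.68, SE 0.15, adjusted p = 0.0112), as did the pump subunit Atp1b2 (-1.02, SE 0.24, adjusted p = 0.0112) and the kinase Oxsr1 that acts on chloride cotransporters (-0.61, adjusted p = 0.0476), while the subunit Atp1b3 rose (0.65, adjusted p = 0.0405). Embigin (Emb), the other monocarboxylate carrier chaperone, was below the filter, with means of 2.40 in NTg, 6.82 in SOD1 and 6.55 in crushed gastrocnemius. Crush replicate 4 read 8.66 and the others 5.48 to 6.19, and no difference is given for this dim probe set.

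The remaining lists were read the same way in SOD1 gastrocnemius, where 12% of all tested probe sets were called. An unadjusted limma p under 0.05 was reached by 29.5% of all tested. Among other mitochondrial membrane transport proteins such as the voltage-dependent anion channels, 0 of 9 tested were called by limma and 3 had an unadjusted p under 0.05. Of 8 amino acid response and mTORC1 genes, the kinase Mtor rose (0.84, adjusted p = 0.0478) and Chac1, a glutathione-degrading enzyme of the amino acid response, fell (-2.06, SE 0.54, adjusted p = 0.0216). All 4 tested denervation reference genes rose, with Chrna1 at 3.54 and Myog at 3.24. In triceps and in crushed gastrocnemius limma called 0 of the 44 tested genes of these 5 lists. At an unadjusted p under 0.05 were 12 in triceps and 13 after crush, where 15.2% and 20.7% of all tested probe sets were, and the 4 reference genes had medians of 2.60 and 1.54 there. The crush median includes crush replicate 4, on which Chrna1 read far above the other crush arrays, and the median without that array is not given.

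Nerve crush was compared with the same NTg gastrocnemius arrays. Of the 86 solute carrier probe sets 3 were called (3.49%; 1 higher and 2 lower), where 4.13% of all tested were called (1.08% higher and 3.06% lower), and 20 had an unadjusted p under 0.05, against 20.7% of all. The groups did not overlap for 17 (19.8%), against 16.4% of all tested. Slc38a4 had the largest fall: the crush arrays read 5.90, 5.89, 6.43 and 6.10 on 1428111_at, all below the NTg arrays (7.31 to 7.75). The level was 2.78-fold lower (log2 change -1.48, SE 0.23, adjusted p = 0.00141), and -1.48 without crush replicate 4 (adjusted p = 0.00238). The other Slc38a4 probe set gave 0.20 with overlapping arrays, and 0.08 without crush replicate 4. Of 3 tested Schwann cell and nerve markers, Mbp, a myelin protein, fell by 2.35 (SE 0.52, adjusted p = 0.0163), and the summed log2 level of the list ran from 8.07 to 10.0 after crush and from 10.0 to 10.5 in NTg. Macrophage markers ran from 9.81 to 10.4 after crush, and limma called 0 of 9, with 2 at an unadjusted p under 0.05. Their part in the changes after crush was not tested.

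The remaining calls after crush were closer to the threshold. Slc35b1, a carrier that exchanges ATP and ADP across the endoplasmic reticulum membrane, read 7.66, 8.02, 7.90 and 7.85 after crush and 8.09, 8.30, 8.39 and 8.32 in NTg (log2 change -0.42, SE 0.12, adjusted p = 0.0453). Slc25a5 read 8.27, 8.20, 7.90 and 8.10 after crush on 1423772_x_at, against 6.95, 6.99, 7.45 and 6.88 in NTg (log2 change 1.05, SE 0.29, adjusted p = 0.0477). Neither overlapped with NTg. Without crush replicate 4 their changes were -0.41 and 1.05, and the adjusted p 0.0552 and 0.0618, so both calls were lost with their size unchanged. The other 6 tested Slc25a5 probe sets gave between 0.38 and 0.93 without a call, and the groups did not overlap for 5 of them. Counted without replicate 4, the calls were 4, against 5.25% of all tested: Slc38a4 again, and rises of the magnesium transporter Slc41a1 (0.60), of Slc38a10 (0.62) and of Slc16a1 (0.48, against 0.29 with all arrays). Slc41a1 read 8.33, 8.38 and 8.36 on replicates 1 to 3, above every NTg array (7.70 to 7.84), and 7.49 on replicate 4, below them.

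Several sugar, lactate and amino acid carriers read far from the other crush arrays on replicate 4. Slc16a3 read 9.36, 9.45, 9.74 and 6.62 after crush, and its change went from -0.56 to 0.16 without replicate 4. Slc2a4 on 1415959_at read 9.68, 9.52, 9.47 and 8.04, and its change went from -0.45 to -0.07; on 1415958_at it went from -0.27 to 0.09. Slc37a4 read 8.78, 8.90, 8.75 and 7.17, and its change of -0.81 shrank to -0.40. In each of these the other 3 crush arrays lay within or near the NTg range, and none was called with or without replicate 4. Slc38a2 moved the other way, at 7.70, 7.90, 8.04 and 9.90, from 0.17 to -0.33.

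Further named carriers were not called after crush with all arrays. Without replicate 4, Slc40a1 went from -0.44 to -0.17 and Slc20a1 from 0.32 to 0.06, and among smaller changes Slc25a11 went from -0.06 to 0.18, Slc25a3 from 0.06 to 0.24, Slc25a4 from -0.15 to -0.01 and Slc27a1 from -0.24 to 0.02. The change was 0.57 for Slc6a6, -0.71 for Slc41a3, -0.44 for Slc40a1, -0.44 for Slc39a1, -0.37 for Slc3a2, 0.35 for Slc29a1, 0.45 for Slc44a1 and 0.32 for Slc20a1. For Slc39a1 all crush arrays (7.51 to 7.67) were below all NTg arrays (7.91 to 8.19), and for Slc3a2 likewise (6.26 to 6.60 against 6.73 to 7.03). So were those of Slc41a3 on both tested probe sets, at -0.71 and, on 1451707_s_at, at -1.07 (adjusted p = 0.113). For Slc44a1 on 1423865_at all crush arrays were above all NTg arrays. The changes of Slc22a5 (0.23), Slc1a5 (0.22), Slc6a8 (-0.18), Slc27a1 (-0.24), Slc12a2 (-0.13), Slc2a1 (0.10), Slc25a4 (-0.15), Slc25a3 (0.06) and Slc25a11 (-0.06) were smaller.

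**Figure D4:**
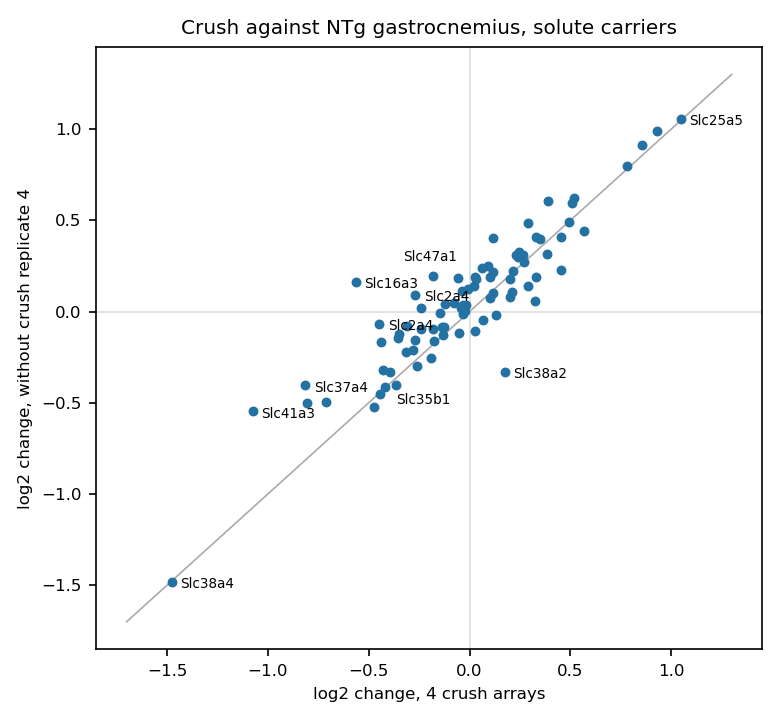
Log2 change of each tested solute carrier probe set in crushed against NTg gastrocnemius with all 4 crush arrays (x axis) and without crush replicate 4 (y axis); the grey diagonal marks equal values. Names mark called probe sets and those that moved by more than 0.35; Slc38a4, Slc35b1 and Slc25a5 lie near the diagonal, while Slc16a3 goes from -0.56 to 0.16 and Slc38a2 from 0.17 to -0.33.

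SOD1 and crushed gastrocnemius were then compared directly. limma called 0 of the 86 solute carrier probe sets and 0% of all tested, with 13 and 12.5% at an unadjusted p under 0.05. By the brightest probe set of each gene, the largest difference of each class was 0.68 for Slc6a6, -0.47 for Slc37a4, 0.47 for Slc39a1, -0.44 for Slc41a3, -0.40 for Slc16a3, 0.39 for Slc29a1, -0.37 for Slc25a25 and -0.09 for Slc27a1. On 1451707_s_at Slc41a3 differed by 0.04. Without crush replicate 4, Slc37a4 was at -0.87 (adjusted p = 0.053) and Slc27a1 at -0.35. The arrays did not overlap for 7 of 86, against 5.48% of all tested, and among these were Slc39a1 (adjusted p = 0.226) and Slc39a7, a zinc carrier of the secretory pathway, at 0.47 (adjusted p = 0.215).

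Without crush replicate 4, 8 solute carrier probe sets were called in that comparison, where 8.03% of all tested were. Slc38a2 (1.12, SE 0.18, adjusted p = 0.00198) and Slc66a2 (0.71, adjusted p = 0.0463) were higher in SOD1. Slc41a1 (-0.56, SE 0.11, adjusted p = 0.00601), Slc2a4 on 1415959_at (-0.87, adjusted p = 0.0247), Slc16a3 (-1.13, adjusted p = 0.0455), Slc40a1 (-0.64), the mitochondrial carrier Slc25a42 (-0.62) and Slc35a1, which carries CMP-sialic acid into the Golgi (-0.54), were lower. On Slc38a2 the SOD1 arrays ran from 8.60 to 9.55 and crush replicates 1 to 3 from 7.70 to 8.04. These calls stand only with that array left out.

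In triceps limma called 0 of 86 solute carrier probe sets in SOD1 against NTg mice, where 0.239% of all tested were called; 15 (17.4%) had an unadjusted p under 0.05, against 15.2% of all. The groups did not overlap for 5 (5.81%), against 6.99%. The smallest adjusted p was 0.191, for Slc22a17, of the organic cation carrier family (-0.61). The count was 0 without NTg triceps replicate 4 too. The 8 skeletal muscle markers were all lower in SOD1 triceps, 0 of them called by limma and 6 with an unadjusted p under 0.05; their summed log2 level ran from 14.1 to 15.2 in SOD1 and from 14.8 to 15.9 in NTg triceps, and the endothelial markers from 9.0 to 9.24 and from 9.52 to 9.62. The part of either in these values was not tested. Without crush replicate 4, 1 was called, Slc41a3 on 1451707_s_at (-1.0, adjusted p = 0.0416), where 2.22% of all were. That probe set read 7.47, 7.78, 7.23 and 6.29 in SOD1 triceps and 8.02, 8.38, 8.36 and 8.02 in NTg triceps, with no overlap.

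The genes called in gastrocnemius were read in triceps as well. Slc6a6 was at 7.58, 6.92, 7.12 and 7.90 in SOD1 triceps and 6.80, 6.28, 7.08 and 6.69 in NTg triceps, a difference of 0.66 (95% interval 0.15 to 1.18, adjusted p = 0.238) with 1 pair of arrays overlapping. Slc38a4 on 1428111_at gave -0.44 (adjusted p = 0.357), with overlapping arrays. Its brighter probe set, 1448889_at, gave 0.01 (adjusted p = 0.979). The other genes gave -0.50 for Slc37a4, -0.35 for Slc2a4, -0.46 for Slc40a1, -0.61 for Slc41a3 on 1425439_a_at, 0.23 for Slc66a2, 0.19 for Slc29a1 and -0.13 for Slc25a51 (0.06 on its brighter probe set), none called. Of these, the groups did not overlap for Slc41a3, where SOD1 triceps replicate 4 read 7.07 and the other SOD1 arrays 8.45 to 8.61. Slc25a5 on 1436874_x_at read 7.55, 7.77, 7.71 and 8.95 in NTg triceps, so the array with the conflicting label was the highest of its group, and 7.97, 7.86, 8.51 and 9.21 in SOD1 triceps. Its change was 0.39 (adjusted p = 0.474), and 0.71 without that NTg array (adjusted p = 0.137). The only tested Slc25a5 probe set lower in SOD1 triceps was 1438545_at, at -0.20. Slc25a4 differed by -0.54, -0.52 and -0.54 on its 3 probe sets (adjusted p from 0.247 to 0.305).

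Other named carriers in triceps were Slc20a1 (0.61), Slc38a2 (0.46), Slc12a2 (0.26), Slc3a2 (0.14), Slc2a1 (0.08), Slc16a1 (-0.02), Slc25a11 (-0.15), Slc39a1 (-0.25), Slc22a5 (-0.27), Slc6a8 (-0.33), Slc35b2 (-0.36), Slc16a3 (-0.40), Slc25a3 (-0.43), Slc27a1 (-0.46), Slc2a4 on 1415958_at (-0.47) and the scaffold Slc9a3r2 (-0.65), given as log2 differences, none of them called. On 1448596_at Slc6a8 differed by 0.22. Slc1a5 differed by -0.46, with NTg triceps replicate 4 at 9.20 and the other 3 NTg arrays at 6.45 to 6.90. Without that array the difference was 0.19. Without it Slc27a1 was at -0.16, Slc3a2 at 0.25 and Slc16a1 at 0.06.

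**Figure D5:**
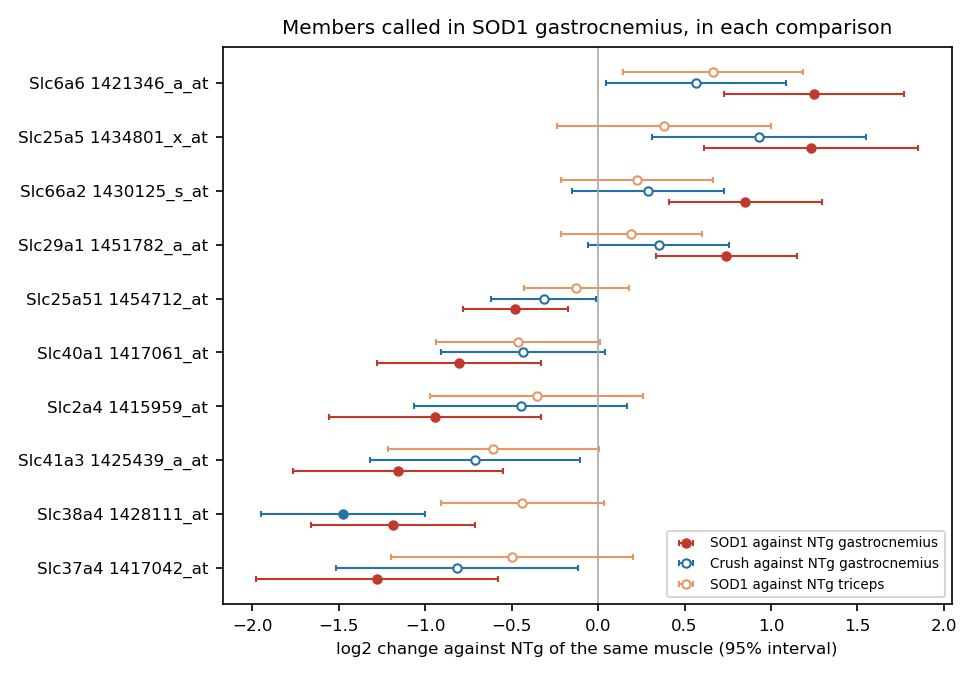
Log2 change with its 95% interval for the 10 genes called in SOD1 gastrocnemius, each by its called probe set with the lowest adjusted p, in SOD1 gastrocnemius (red), crushed gastrocnemius (blue) and SOD1 triceps (orange), each against NTg of the same muscle; filled points were called. Red and blue share the NTg arrays, and of the 10 probe sets plotted Slc38a4 is the only one filled in both.

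The SOD1 change in gastrocnemius was set against that in triceps by the difference of both changes. limma called 0 of 86 solute carrier probe sets and 0% of all tested; 7 of 86 and 9.44% of all had an unadjusted p under 0.05. The smallest adjusted p was 0.438, for the carnitine carrier Slc22a5, at 0.48: it differed by 0.21 in gastrocnemius and -0.27 in triceps. For Slc38a4 on 1428111_at the difference between the muscles was -0.75 (adjusted p = 0.494), and for Slc6a6 0.58 (adjusted p = 0.621). By brightest probe set, the largest of each class were -0.78 for Slc37a4, 0.74 for Slc1a5, 0.69 for Slc25a5, 0.61 for Slc9a3r2, 0.59 for Slc22a17, -0.57 for Slc16a3, 0.55 for Slc29a1 and -0.34 for Slc40a1, none called. Without NTg triceps replicate 4, Slc1a5 was at 0.10 and Slc25a5 at 0.37. The calls in gastrocnemius and their absence in triceps were therefore not shown to differ.

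NTg gastrocnemius and NTg triceps had no called solute carrier, where 1.71% of all tested probe sets were called; 9 of 86 had an unadjusted p under 0.05, against 14.3% of all. The nearest was Slc25a39, a mitochondrial glutathione carrier, at 8.98, 8.97, 8.97 and 9.05 in gastrocnemius and 9.34, 9.50, 9.40 and 9.65 in triceps. The muscles did not overlap, and the difference of -0.48 had an adjusted p of 0.0627; it was called without crush replicate 4 (adjusted p = 0.0375). A second creatine transporter probe set, 1448596_at, was higher in gastrocnemius by 0.60 (adjusted p = 0.0757). Slc2a1 was higher by 0.56 (adjusted p = 0.137). Slc1a5 (-0.56), Slc40a1 (-0.47), Slc29a1 (-0.42), Slc12a2 (-0.40), Slc44a2 (-0.33, and 0.38 on 1428065_at) and Slc16a1 (0.07) were not called, and without NTg triceps replicate 4 Slc1a5 was at 0.09, Slc44a2 at -0.19 and Slc16a1 at 0.15.

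The other 55 solute carrier probe sets, among them all those of 42 genes, were at or below the filter, so nothing is said of their changes in the main comparisons. They include Slc2a3 and Slc4a3. Of the 26 muscle transporters listed for naming, 20 were found by symbol and 19 were tested; the other 6 symbols (Slc7a5, Slc25a12, Slc25a13, Slc8a1, Slc4a1 and Slc30a1) were not analysed here.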

How the data were processed

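RNA of whole muscle was measured on 20 Affymetrix arrays. Per the labels' protocols, 4 ug of RNA per sample was turned into biotinylated cRNA. Per the submitters' processing notes, MAS5 gave the signals, with no version or scaling named. The values the authors deposited are log2 signals. The log2 values were used as deposited. Groups follow the titles. The platform annotation gave 1 symbol for 9874 probe sets, several for 387 and none for 487. For all 141 solute carrier probe sets, the RefSeq genes of GRCm38.p6 carry the same symbol. Promoter windows were listed for 72 of the 103 genes.

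The lowest 30% of probe sets by mean over all arrays were left out. A model of 5 group means was fitted to all 20 arrays (limma 3.58.1 in R 4.3.3, eBayes with a trend, 15 residual degrees of freedom). Within each of 6 comparisons the p-values of all 7523 tested probe sets received a Benjamini-Hochberg adjustment. The fit was tested on simulated data. The labels do not say which arrays came from 1 mouse. A gene is represented by its probe set with the highest mean. Others are given where their call differs and, for some genes, where their sign differs.

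Named were every called probe set, the largest change of each class without a call, and 26 muscle transporters. The members, the 8 classes, the 5 gene lists and the 7 marker lists were chosen with earlier results of these data known. Genes named from a fit without crush replicate 4, for a group mean above the filter, or for separated arrays, were chosen after their values were seen. Alternatives were quantile normalization, an offset of 32 on the linear signal, no filter, the lowest 60% left out, the compared arrays only, the replicate number as a block, and each array left out in turn. Figures were drawn with matplotlib 3.10.9.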

Additional observations from a re-analysis of the deposited data

Results flagged for a closer look

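In 17 of 190 groups of 4 arrays checked among the named probe sets (8.95%, where chance gives about 5%), 1 array lay far from the other 3. Of these, 7 concern crush replicate 4. It was low for Slc2a4 on 1415959_at (8.04, next lowest 9.47), Slc37a4 (7.17, next 8.75), Slc41a3 (7.46, next 8.30), Slc16a3 (6.62, next 9.36), Slc25a11 (9.0, next 9.87) and Slc44a2 on 1438559_x_at (8.01, next 8.83). It was high for Slc38a2 (9.90, next highest 8.04).

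NTg triceps replicate 4, the array with the conflicting label, was high for Slc25a5 on 1436874_x_at (8.95, next 7.77) and 1434801_x_at (8.72, next 7.49) and for Slc1a5 (9.20, next 6.90). NTg triceps replicate 3 was high for Slc35b2 (7.24, next 6.49). In SOD1 triceps, replicate 4 was low for Slc41a3 (7.07, next 8.45) and Slc16a3 (8.50, next 9.03), and replicate 1 was low for Slc3a2 (6.84, next 7.21). SOD1 gastrocnemius replicate 4 was high for Slc3a2 (7.08, next 6.74). NTg gastrocnemius replicate 3 was high for Slc38a2 (8.42, next 8.16) and low for Slc44a2 on 1438559_x_at (8.50, next 9.22).

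Below the filter, 4 probe sets had a group mean above the filter level of 5.88 and above that of NTg gastrocnemius. Slc4a3, an anion exchanger, averaged 6.38 in SOD1 and 4.49 in NTg gastrocnemius. Another Slc25a5 probe set, 1438922_x_at, averaged 6.11 and 4.78. Slc10a3 averaged 6.02 and 4.99. Slc7a4 averaged 6.26 after crush and 5.83 in NTg. These probe sets were singled out by those means, so no test of the differences is given.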

How the results depend on the processing

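The number of arrays, 4 a group, and the dim signals near the filter limit what could be called. Of the 17 called changes of solute carriers, 3 kept their call in every alternative that tested them: Slc38a4 in both comparisons and Slc6a6 in SOD1 gastrocnemius. All 17 kept their direction. The count of 14 in SOD1 gastrocnemius became 24 with the compared arrays only and ranged from 2 to 23 with 1 array left out. The count of 3 after crush became 1 with no filter and 6 with the compared arrays only, and ranged from 1 to 6 with 1 array left out. With 1 array left out, the ranges were 0 to 1 for SOD1 triceps, 0 to 8 for SOD1 against crush and 0 to 2 between the NTg muscles, where no filter and the compared arrays only gave 1 each. Shares over all tested probe sets under these alternatives are not given, except without crush replicate 4. Whether the counts moved apart from those of the array is therefore not shown.

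Whether equal replicate numbers mark shared mice is not stated. Deviations of same-numbered arrays correlated from -0.25 to 0.62. The highest values, 0.57 for replicate 1 and 0.62 for replicate 4, were between SOD1 gastrocnemius and SOD1 triceps. Replicates 2 and 3 of that pair gave -0.10 and -0.04. The main fit took all arrays as independent. In no pair of groups were all 4 above 0.1, though 3 of 4 were for both NTg muscles and for SOD1 and crushed gastrocnemius. In none did every array correlate best with its own number. With the replicate number as a block the calls were 19 in SOD1 gastrocnemius, 6 after crush and 1 between the NTg muscles, and the other counts stayed at 0. The shares over all tested probe sets with that block are not given, so these counts too are not set against the array.

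Signs turned in 17 changes, none of them called. After quantile normalization Slc39a1 in SOD1 gastrocnemius was -0.0044 and Slc25a3 after crush -0.018. With 1 array left out, the ranges in SOD1 gastrocnemius were -0.033 to 0.074 for Slc39a1, -0.13 to 0.014 for Slc3a2 and -0.039 to 0.091 for Slc6a8. In triceps they were -0.080 to 0.056 for Slc16a1, -0.84 to 0.19 for Slc1a5 and -0.014 to 0.18 for Slc2a1. After crush they were -0.88 to 0.16 for Slc16a3, -0.16 to 0.18 for Slc25a11, -0.066 to 0.24 for Slc25a3, -0.38 to 0.022 for Slc27a1, -0.045 to 0.22 for Slc2a1, -0.47 to 0.093 for Slc2a4 on 1415958_at and -0.33 to 0.40 for Slc38a2. Between SOD1 and crush they were -1.13 to 0.065 for Slc16a3 and -0.35 to 0.047 for Slc27a1. Between the NTg muscles they were -0.83 to 0.091 for Slc1a5 and -0.00093 to 0.15 for Slc16a1. The cause was not tested. Of 1248 class medians under the alternatives, 10 moved by more than the spread between arrays.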
